A study of Mus musculus with 96 samples.

Results

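Q92 mice were compared with Q20 mice at 10 months of age, in the striatum, by sequencing of short RNA. Members were chosen by their genotype and age labels, which gave 8 Q92 and 8 Q20 libraries, 16 of the 96 in the series, each with 4 females and 4 males. The series also holds heterozygous mice with Q50 and Q140 alleles and wild-type siblings from the lines Q20 and Q50, and it sampled every genotype at 6 and 10 months. All mice are labelled as C57BL/6. Each knock-in mouse carries 1 wild-type *Htt* allele and 1 allele with human *HTT* exon 1, so the Q92 mice and the Q20 mice both bear a knock-in and differ by the length of its CAG repeat. The study uses Q20 together with wild-type mice as controls, whereas the main contrast here uses Q20 alone. The labels place Q92 mice in cages with Q92 mice, and Q20 mice in cages with wild-type and Q20 mice, and no wild-type littermates of the Q92 line were among the libraries. Repeat length, knock-in line and housing therefore cannot be told apart. Tissue was analysed in bulk, where fewer cells of a type and less RNA per cell cannot be told apart either.

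A microRNA is cut from a hairpin-shaped precursor into a short RNA that guides a silencing complex to messenger RNAs, which it finds mainly through the seed near the 5′ end of the microRNA. A longer CAG repeat in *Htt* lengthens the glutamine stretch of the huntingtin protein, which in humans causes Huntington's disease, and striatal neurons are especially affected. The miR-200 family is best known from epithelial cells and from olfactory tissue.

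Both tables of the series give a value for each miRBase hairpin accession, and no source used here pairs these accessions with microRNA names, so hairpins are given by accession and most of their functions cannot be given. The tissue could not be checked against marker microRNAs for the same reason. MI0000243, the hairpin by which 1 Q92 library was singled out at more than 200 CPM, belongs to the miR-200 family. CPM are counts scaled to a common library total. The mature 3p microRNAs of this family are shown because a hairpin of the family set that library apart. The sequences are from RefSeq (GRCm38.p6), and capitals mark the seed, bases 2 to 8. *Mir200b*, *Mir200a* and *Mir429* lie on chromosome 4, and *Mir200c* and *Mir141* on chromosome 6.
mmu-miR-200b-3p: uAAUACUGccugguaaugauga
mmu-miR-200c-3p: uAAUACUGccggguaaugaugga
mmu-miR-429-3p: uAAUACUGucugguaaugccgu
mmu-miR-200a-3p: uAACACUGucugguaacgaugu
mmu-miR-141-3p: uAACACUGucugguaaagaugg
The first 3 share the seed AAUACUG and the other 2 share AACACUG.

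Total counts of the 16 libraries ranged from 3948560 to 12530900. They averaged 5997664 ± 1333085 (SD, n = 8) in Q92 and 7010099 ± 2741676 (SD, n = 8) in Q20, a difference within the spread of the mice (exact permutation test, two-sided p = 0.395). Of 1187 hairpins 474 passed the filter on low counts and were tested. The 5 most abundant hairpins held 41.1% of the counts in Q92 and 41.3% in Q20, and their log2 differences lay between -0.04 and 0.09. Each of the 5 was past the threshold in neither direction. Q92 female replicate 1, the library rich in MI0000243, was the least similar of the 16 to the other 10-month libraries (connectivity Z -11.5, where the study removes libraries below -5). Q20 female replicate 1 (Z -5.39) and Q92 male replicate 4 (Z -5.12) were also below that limit, and Q20 male replicate 3 was near it (Z -4.25).

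Few hairpins differed between Q92 and Q20. Of the 474 tested hairpins 6 (1.27%) passed an adjusted p of 0.05: 1 was higher in Q92 (0.211%) and 5 were lower (1.05%). At an unadjusted p under 0.05 there were 75 (15.8%), 40 higher (8.44%) and 35 lower (7.38%), or 33 higher and 43 lower when libraries were scaled by total counts alone. The median absolute log2 difference over all tested hairpins was 0.13, and no hairpin separated the 8 Q92 mice completely from the 8 Q20 mice in either direction. The tests were F tests of edgeR's quasi-likelihood method with Benjamini-Hochberg adjustment, and the 6 hairpins shared an adjusted p of 0.0204.

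MI0003520 was the hairpin called as higher in Q92 than in Q20. In Q92 it ranged from 15.7 to 21.7 CPM with a median of 18.03, and in Q20 from 9.31 to 18.96 CPM with a median of 13.1. The highest value in Q20 was in male replicate 2, and only 2 Q92 mice were above it, although all 8 Q92 mice were above the Q20 mean. The mean was 18.1 ± 2.08 CPM in Q92 against 13.6 ± 3.12 CPM in Q20 (SD, n = 8 each), a 1.33-fold difference (log2 0.41 ± 0.10, SE).

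Among the hairpins called as lower in Q92 than in Q20, MI0026046 had the largest difference. Its levels in Q92 were 13.5 to 22.9 CPM, median 18.7, and in Q20 21.1 to 37.5 CPM, median 23.1. Only 1 Q92 mouse, male replicate 1, reached the range of the Q20 mice, and 7 of 8 were below every Q20 mouse. The Q20 values split into 6 mice up to 24.7 CPM and 2 mice, female replicate 1 and male replicate 3, at 37.5 and 37.4 CPM. The level was 0.690 of that in Q20 (log2 -0.54 ± 0.12).

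MI0014086 ranged from 9.89 to 17.9 CPM in Q92, median 15.1, and from 13.3 to 32.6 CPM in Q20, median 19.2. The same pair of Q20 mice was highest, at 32.6 and 27.01 CPM, while the lowest Q20 mouse, male replicate 2, lay inside the Q92 range. All 8 Q92 mice were below the Q20 mean and 3 were below every Q20 mouse. The log2 difference was -0.50 ± 0.12.

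The other 3 were abundant hairpins with smaller differences. MI0000173 had 8433 to 11441 CPM in Q92, median 10107, and 9883 to 14845 CPM in Q20, median 11867. It was lower in Q92 by 0.28 ± 0.07 on the log2 scale. Again the 2 highest Q20 mice were female replicate 1 (14845 CPM) and male replicate 3 (14743 CPM). The deposited values of this hairpin were not whole numbers in any of the 48 libraries of 10 months, so its reads may be shared with other hairpins, and its level is uncertain to that extent.

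MI0000689 had 527 to 661 CPM in Q92, median 590, and 583 to 771 CPM in Q20, median 694. All 8 Q92 mice were below the Q20 mean, 3 of them below every Q20 mouse, and the difference was small (log2 -0.23 ± 0.06). MI0000257 had 8105 to 11448 CPM in Q92, median 8759, and 9216 to 12278 CPM in Q20, median 11354 (log2 -0.27 ± 0.07). For it, 6 Q92 mice lay below every Q20 mouse and 1, male replicate 4, lay above the Q20 mean.

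**Figure D1:**
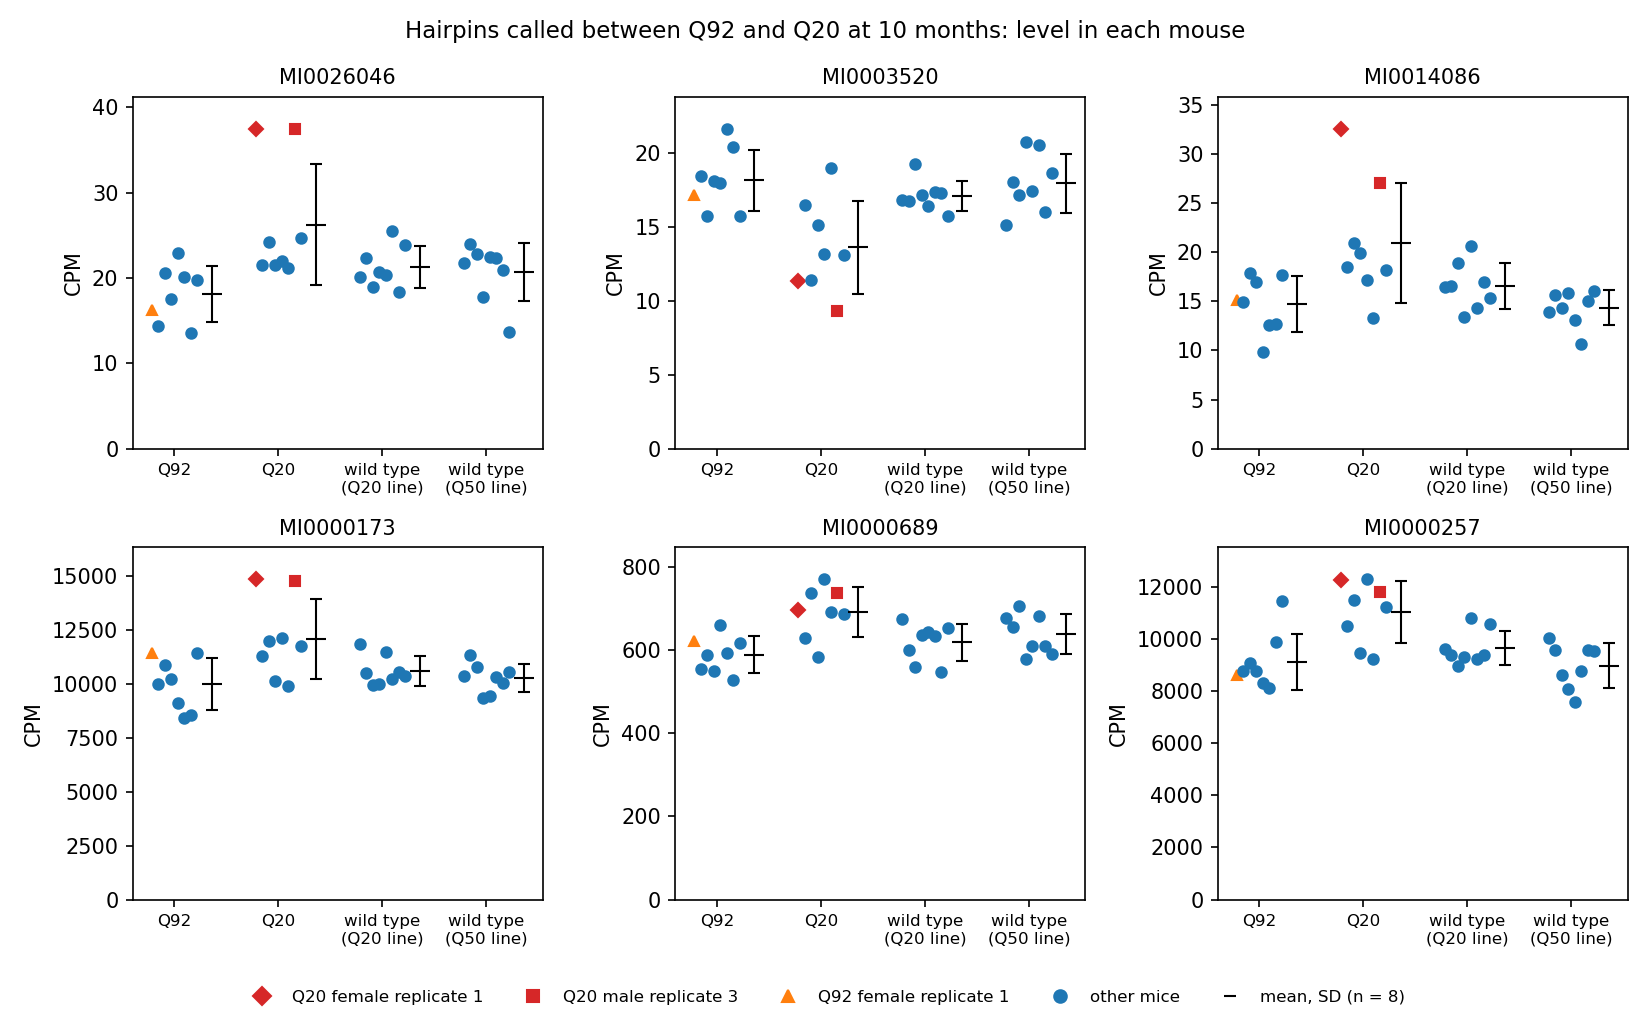
Level (CPM, linear axes from 0) of the 6 hairpins called between Q92 and Q20, in each of the 8 mice of 4 groups at 10 months, with mean and SD beside the points. Q20 female replicate 1 and Q20 male replicate 3 are the 2 highest Q20 mice for MI0026046, MI0014086 and MI0000173 and the 2 lowest for MI0003520.

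The calls depended on single mice. Without Q20 female replicate 1 no hairpin was called (65 at an unadjusted p under 0.05), without Q20 male replicate 3 none (68), and without Q92 male replicate 3 none (75). Counts of 1 and 3 remained without Q92 male replicate 2 and without Q92 male replicate 1. In the other direction, the count rose to 10 without Q20 female replicate 2 or Q92 female replicate 3, to 16 without Q20 female replicate 4, to 19 without Q20 male replicate 2 and to 26 without Q92 female replicate 1. With only the 16 libraries of both genotypes in the fit, where the other genotypes no longer contribute to the estimate of spread, edgeR called 0 and 46 had an unadjusted p under 0.05. DESeq2, with all 48 libraries of 10 months, called 8 hairpins, the 6 and 2 lower ones that edgeR did not call, MI0000142 and MI0000699.

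The largest of these further differences were in rare hairpins. MI0000699 had 0.260 to 2.34 CPM in Q92, median 0.909, and 0.702 to 10.4 CPM in Q20, median 2.29. All 8 Q92 mice were below the Q20 mean, and the highest Q20 mice were female replicate 1 (10.4 CPM) and male replicate 3 (5.402 CPM). Its log2 difference was -1.57 ± 0.44 by edgeR (adjusted p 0.0619) and -1.57 ± 0.46 by DESeq2 (adjusted p 0.0331), and with the L number, a code in the descriptions whose meaning is not stated, as a factor it was called by edgeR (-1.67 ± 0.42, adjusted p 0.0309). MI0006307 had 0.388 to 1.14 CPM in Q92, median 0.659, and 0.624 to 3.54 CPM in Q20, median 1.102, with the same pair of Q20 mice highest (log2 -1.02 ± 0.30, adjusted p 0.0632). MI0000142, an abundant hairpin, averaged 24363 ± 2234 CPM in Q92 and 28291 ± 3484 CPM in Q20 (SD, n = 8 each; log2 -0.22 ± 0.06, adjusted p 0.0632 by edgeR), and its values were not whole in 47 of the 48 libraries of 10 months.

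L numbers were not spread alike over the groups: 3 Q92 libraries and 1 Q20 library were L3, 4 and 6 were L4, and each group had 1 L5 library. Among L4 libraries alone, the log2 difference was 0.19 ± 0.15 for MI0003520, -0.19 ± 0.13 for MI0014086, -0.13 ± 0.08 for MI0000173 and -0.13 ± 0.08 for MI0000257, less than with all libraries by over 1.5 times. It was -0.46 ± 0.17 for MI0026046 and -0.23 ± 0.07 for MI0000689. None of the 6 was called there (adjusted p 0.440 to 0.897, edgeR), while with the L number as a factor over all libraries edgeR called 8, the 6 included.

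**Figure D2:**
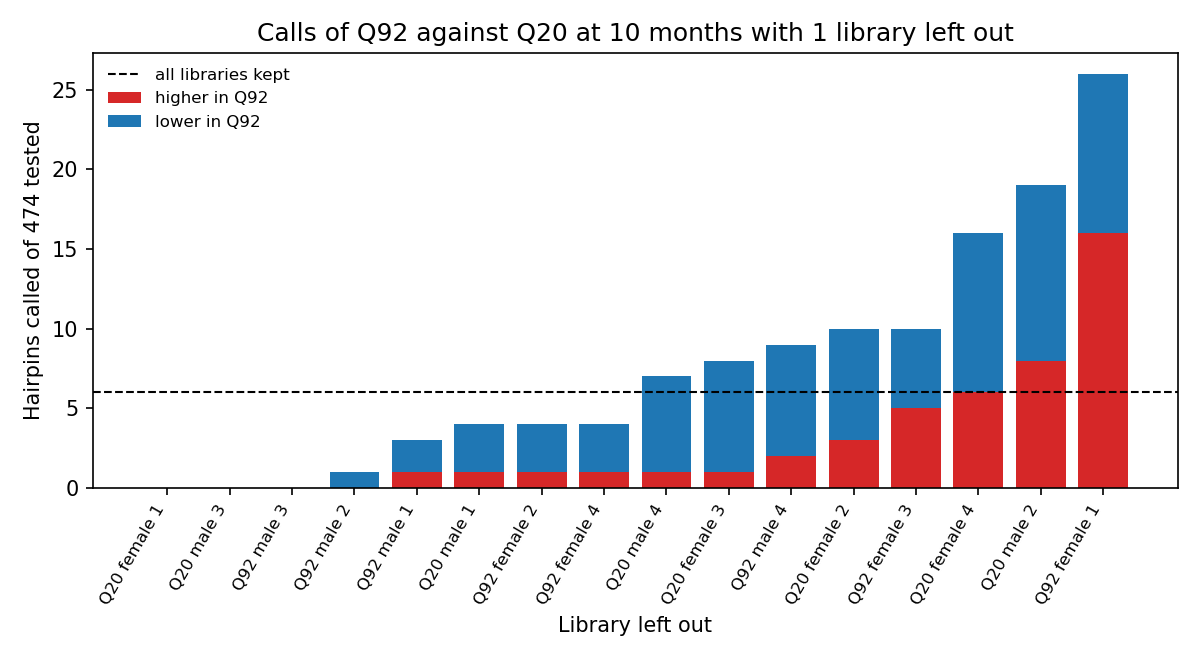
Number of hairpins called of 474 tested (stacked bars, from 0, higher and lower in Q92) when the library named on the x axis is left out, with the 6 calls of the full set as a dashed line. The count goes from 0 without Q20 female replicate 1, Q20 male replicate 3 or Q92 male replicate 3 to 26 without Q92 female replicate 1.

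Q20 female replicate 1 and Q20 male replicate 3 resembled each other more than either resembled any other mouse of their group. The chi-square per degree of freedom between their counts was 127, against 421 to 1207 between female replicate 1 and the other 6 Q20 libraries and 348 to 781 between male replicate 3 and those 6. Their totals (8244230 and 5264360 counts) were within the range of the rest, and their L numbers were 5 and 4. With both left out, MI0026046 averaged 22.5 ± 1.54 CPM in the other 6 Q20 mice (SD, n = 6), against 18.1 ± 3.27 CPM in the 8 Q92 mice. Its log2 difference went from -0.54 to -0.31 ± 0.11 (adjusted p 0.139, edgeR, where its adjusted p over all alternatives ran from 0.00388 to 0.780). That of MI0014086 became -0.28 ± 0.11, that of MI0000173 -0.16 ± 0.06 and that of MI0003520 0.30 ± 0.10, while MI0000689 (-0.21 ± 0.06) and MI0000257 (-0.23 ± 0.07) moved least. None of the 6 was called in that fit. It called 4 others (0.844%), all lower in Q92: MI0014095 (log2 -0.37 ± 0.08), MI0003491 (-0.25 ± 0.05), MI0000158 (-0.26 ± 0.06) and MI0000696 (-0.27 ± 0.07). This fit was chosen after the values were seen.

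For these 4 hairpins the same pair of mice was the lowest of the Q20 group. Leaving the pair out raised the Q20 mean and narrowed its spread. The 4 calls as lower in Q92 therefore follow largely from that choice of mice. MI0014095 ranged from 205 to 301 CPM in Q92, median 266, and from 178 to 368 CPM in Q20, median 329. The mean was 264 ± 34.5 CPM in Q92 against 303 ± 73.5 CPM in Q20 (SD, n = 8 each), and with all libraries its log2 difference was -0.20 ± 0.10 (adjusted p 0.320). MI0000696 had 918 to 1238 CPM in Q92, median 1127, against 828.7 to 1449 CPM in Q20, median 1311 (log2 -0.13 ± 0.08, adjusted p 0.405). For both, the lowest Q20 mouse lay below every Q92 mouse although the Q20 median lay above every Q92 mouse. Female replicate 1 and male replicate 3 were at 178 and 202 CPM for MI0014095 and at 910 and 828.7 CPM for MI0000696. Wild-type siblings of the Q20 line averaged 338 CPM for MI0014095, 1301 for MI0000696, 804 for MI0003491 and 5794.5 for MI0000158. In the same order, Q50 mice averaged 337, 1302, 753 and 6223.5 CPM. All 8 Q20 mice averaged 303 ± 73.5, 1215 ± 222, 806 ± 103 and 5489 ± 974 CPM (SD, n = 8). Q92 mice averaged 264, 1107, 722 and 5001 CPM, and Q140 mice 201, 920, 592 and 4372 CPM.

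Wild-type siblings of the Q20 mice allow the levels of both knock-in groups to be placed. For MI0026046 the 8 wild-type mice averaged 21.3 ± 2.46 CPM, between Q92 (18.1) and Q20 (26.3). For MI0003520 they averaged 17.1 ± 1.01 CPM, and for MI0014086 16.6 ± 2.36 CPM. The wild-type mean was nearer to Q92 than to Q20 for all 6 called hairpins, and the wild-type SD was below the Q20 SD for all 6. These hairpins were called on the difference between Q92 and the same Q20 mice. Both counts therefore follow largely from that choice and are no separate evidence that Q20 stands apart. In wild-type siblings of the Q50 line, which are other mice, the mean lay between Q92 and Q20 for 4 of the 6. It lay beyond Q92 for MI0014086 (14.3 ± 1.78 CPM) and MI0000257 (8962 ± 857 CPM). Q50 mice averaged 20.3 CPM for MI0026046, 16.5 for MI0003520 (Q92 18.1, Q20 13.6) and 16.3 for MI0014086 (Q92 14.7, Q20 20.9). They averaged 9976 CPM for MI0000173 (Q92 10006, Q20 12091), 626 for MI0000689 (Q92 589, Q20 692) and 9180 for MI0000257 (Q92 9116, Q20 11026).

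The contrasts share libraries, so their values are set side by side without a test of likeness. For MI0026046 the log2 difference was -0.54 for Q92 minus Q20, 0.30 ± 0.12 for Q20 minus its wild-type siblings and -0.23 ± 0.12 for Q92 minus those siblings. For MI0003520 these were 0.41, -0.32 ± 0.10 and 0.09 ± 0.10, and for MI0014086 -0.50, 0.33 ± 0.12 and -0.18 ± 0.12. MI0000173 had -0.28, 0.19 ± 0.07 and -0.09 ± 0.07, MI0000689 had -0.23, 0.16 ± 0.06 and -0.07 ± 0.06, and MI0000257 had -0.27, 0.19 ± 0.07 and -0.08 ± 0.07. Neither of the contrasts with wild type was called for any of the 6 (adjusted p at least 0.246 for Q20 and 0.780 for Q92, edgeR). In Q140, the log2 difference from the same Q20 mice was -0.77 ± 0.12 for MI0026046, 0.48 ± 0.10 for MI0003520 and -0.12 ± 0.07 for MI0000257.

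**Figure D3:**
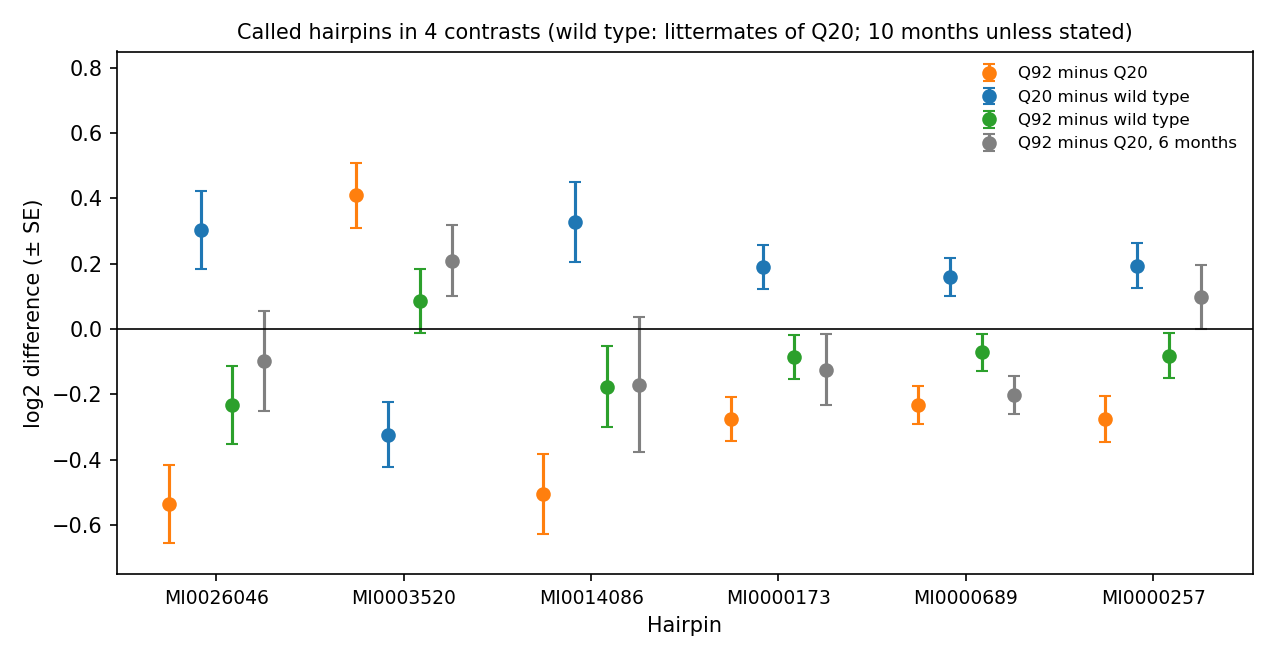
Log2 difference with its SE for the 6 called hairpins in 4 contrasts, 3 of them at 10 months and sharing libraries, and Q92 minus Q20 at 6 months in other mice. Q92 minus wild-type siblings lies nearer to 0 than Q92 minus Q20 for all 6, for example -0.07 against -0.23 for MI0000689. The 6 were called on Q92 minus Q20, so this follows largely from that choice and is no separate evidence.

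With wild-type siblings of the Q20 line in place of the Q20 mice, edgeR called 0 of 474 hairpins (0%), and 28 had an unadjusted p under 0.05. With both wild-type groups as controls it called 12 (2.53%), 10 higher and 2 lower, and 0 of these were among the 6. The 10 higher ones were MI0004673 (log2 0.42 ± 0.12), MI0009990 (0.19 ± 0.05) and the 8 hairpins of Q92 female replicate 1 described next, and the 2 lower ones were MI0014095 (-0.38 ± 0.09) and MI0005521 (-0.17 ± 0.05). Without that library this comparison called 0, and 41 had an unadjusted p under 0.05.

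In Q92 female replicate 1, 8 hairpins were over 10 times the median of the other 15 libraries, and together they held 0.773% of its CPM against a median of 0.0436% in the others. MI0001642 was at 728 CPM there, 29.7 times the median of the others (24.5 CPM) and 6.71 times the highest of the other 47 libraries of 10 months. MI0000243 was at 435 CPM against 8.82 to 69.6 CPM in the other 7 Q92 mice and 5.79 to 52.6 CPM in Q20. MI0000554 was at 361 CPM, with 67.6 CPM in the next library, and MI0000224, the most abundant of the 8, was at 5173 CPM, with 1205 CPM in the next.

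The remaining 4 were MI0000225 at 733 CPM, MI0000166 at 214 CPM, MI0000583 at 54.3 CPM and MI0000694 at 33.4 CPM. After these 8, no hairpin was over 4.03 times its median in that library. The lengths implied by the deposited tables were 83, 70, 90, 72 and 69 bases for MI0001642, MI0000243, MI0000554, MI0000166 and MI0000694. Those are the lengths of *Mir429*, *Mir200b*, *Mir200a*, *Mir141* and *Mir200c* in RefSeq, which is a match of length only, since 8 to 15 of the 474 tested hairpins have each of these lengths.

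**Figure D4:**
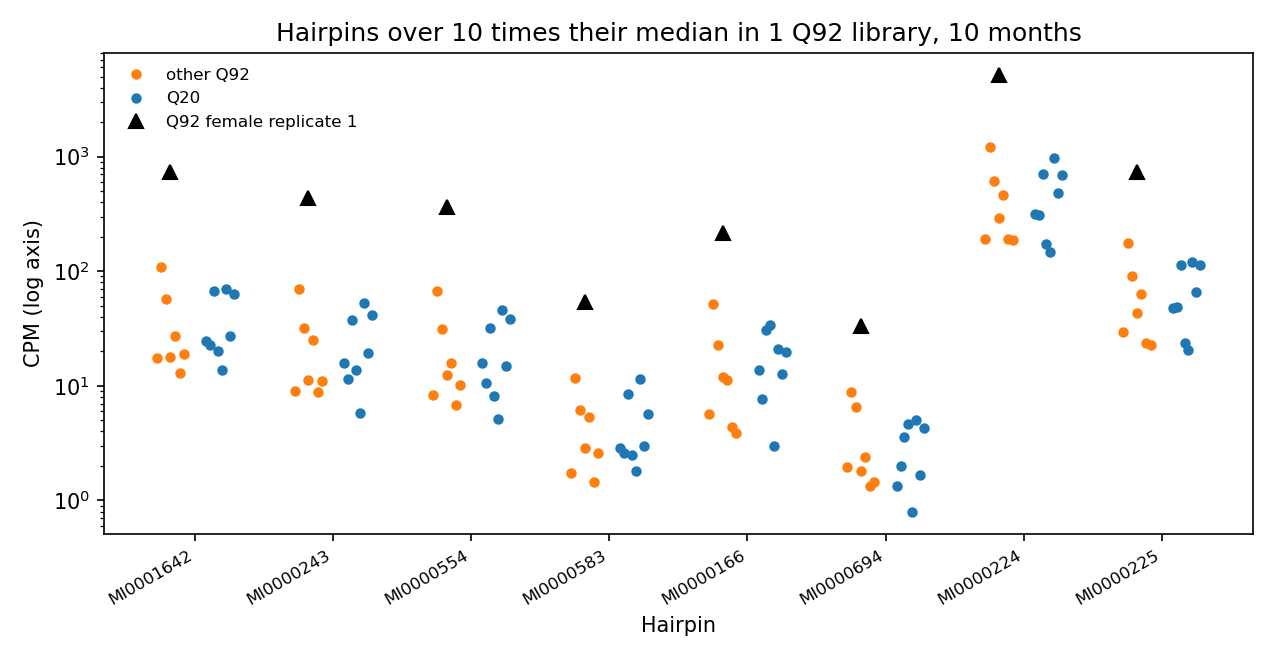
Level (CPM, log axis) in each of the 8 Q92 and 8 Q20 mice of the 8 hairpins that exceed 10 times their median in Q92 female replicate 1. That library, drawn as a black triangle, is above every other library for all 8, while the other Q92 and the Q20 mice overlap.

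The other 7 Q92 mice had the miR-200 hairpin MI0000243 at 23.8 ± 22.1 CPM (SD, n = 7) against 24.7 ± 16.8 CPM in Q20 (n = 8). With the library, its log2 difference was 1.28 ± 0.65 (adjusted p 0.318), and without it -0.12 ± 0.50 (adjusted p 0.929). MI0001642 went from 1.39 ± 0.67 to -0.13 ± 0.51 and MI0000554 from 1.32 ± 0.68 to -0.028 ± 0.54. MI0000694 went from 1.04 ± 0.52 to 0.17 ± 0.44 and MI0000166 from 0.93 ± 0.62 to -0.22 ± 0.53. None of these 5 was called either way. The median log2 difference over all tested hairpins was 0.0030 with the library and 0.014 without it. Whether tissue of another kind reached that sample was not tested.

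Leaving this library out also changed the number of small differences that passed. Without it 26 hairpins (5.49%) were called, 16 higher (3.38%) and 10 lower (2.11%), and these included the 6 in the same directions. The other 20 had the same direction with the library in, with adjusted p up to 0.215. Scaling by total counts alone gave 17, 4 higher and 13 lower, and RLE factors gave 14, 3 higher and 11 lower, so which direction prevailed depended on scaling. With no filter on low counts 1 was called, and with only the Q92 and Q20 libraries or with a replicate block 0 were (52 and 79 had an unadjusted p under 0.05). Without Q92 female replicate 1 and 1 further library the count ran from 0 to 41. It was 41 without Q20 male replicate 2, 14 without Q20 male replicate 4, 12 without Q20 female replicate 3 or Q20 male replicate 1, 7 without Q92 male replicate 1, and 0 without any of Q20 female replicate 1, Q20 male replicate 3, Q92 female replicates 2 and 4, and Q92 male replicates 2 and 3. The count was 36 without Q92 male replicate 4 and 31 without Q20 female replicate 2. Leaving out Q20 female replicate 4 gave 27, and leaving out Q92 female replicate 3 gave 22.

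The 16 higher hairpins had log2 differences of 0.19 to 0.69 (median 0.31), and the 10 lower ones of -1.78 to -0.23 (median -0.44). The left-out mouse counted, all 8 Q92 mice were above the Q20 mean for 11 of the 16 and below it for 6 of the 10. These hairpins were called on the same values, so the counts follow largely from that choice and are no separate evidence. MI0000794, the hairpin with the smallest p among those not yet named, had 167 to 254 CPM in Q92, median 194, and 105 to 197 CPM in Q20, median 168. Its log2 difference was 0.40 ± 0.10 without the library (adjusted p 0.0310) and 0.35 ± 0.10 with it (adjusted p 0.0632). Calls occurred at all abundances, in 3 of 159 hairpins under 10 CPM, 9 of 105 from 10 to 100 CPM, 9 of 118 from 100 to 1000 CPM and 5 of 92 above 1000 CPM. The median SE was 0.22 under 10 CPM and 0.08 above 1000 CPM with all libraries, so larger changes were needed for a call among rare hairpins.

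The same contrast was measured at 6 months in 16 other mice. There edgeR called 0 of 474 hairpins (0%) and 17 (3.59%) had an unadjusted p under 0.05. By DESeq2 2 were called, MI0000689 and MI0004645. MI0000689 had 562 to 703 CPM in Q92, median 585, and 617 to 748 CPM in Q20, median 709. Its log2 difference was -0.20 ± 0.06 (unadjusted p 0.00124, adjusted p 0.196, edgeR), beside -0.23 ± 0.06 at 10 months. MI0003520 averaged 15.4 ± 2.17 CPM in Q92 and 13.3 ± 1.06 CPM in Q20 at 6 months (log2 0.21 ± 0.11), and MI0026046 20.0 ± 3.44 and 21.5 ± 4.35 CPM (log2 -0.10 ± 0.15). MI0000257 had the opposite sign, with 12946 ± 1060 CPM in Q92 and 12105 ± 1160 CPM in Q20 (log2 0.10 ± 0.10).

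Of the 6 hairpins 5 had the same sign at both ages and 1, MI0000689, had an unadjusted p under 0.05 at 6 months. Of the 26 called without Q92 female replicate 1, 20 had the same sign and 3 had an unadjusted p under 0.05, against 251 of 474 hairpins (53.0%) with the same sign. The 16 higher ones had a median log2 difference of 0.11 at 6 months and the 10 lower ones of -0.11, beside 0.01 over all tested hairpins. MI0004645, called by DESeq2 at 6 months, had 6.99 to 12.2 CPM in Q92 and 4.15 to 9.24 CPM in Q20 at that age, and 3.61 to 15.2 against 3.26 to 10.8 CPM at 10 months. By edgeR it was called at 6 months without Q20 female replicate 2 of that age. With all libraries its log2 difference was 0.59 at 6 months and, without Q92 female replicate 1, 0.69 at 10 months.

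**Figure D5:**
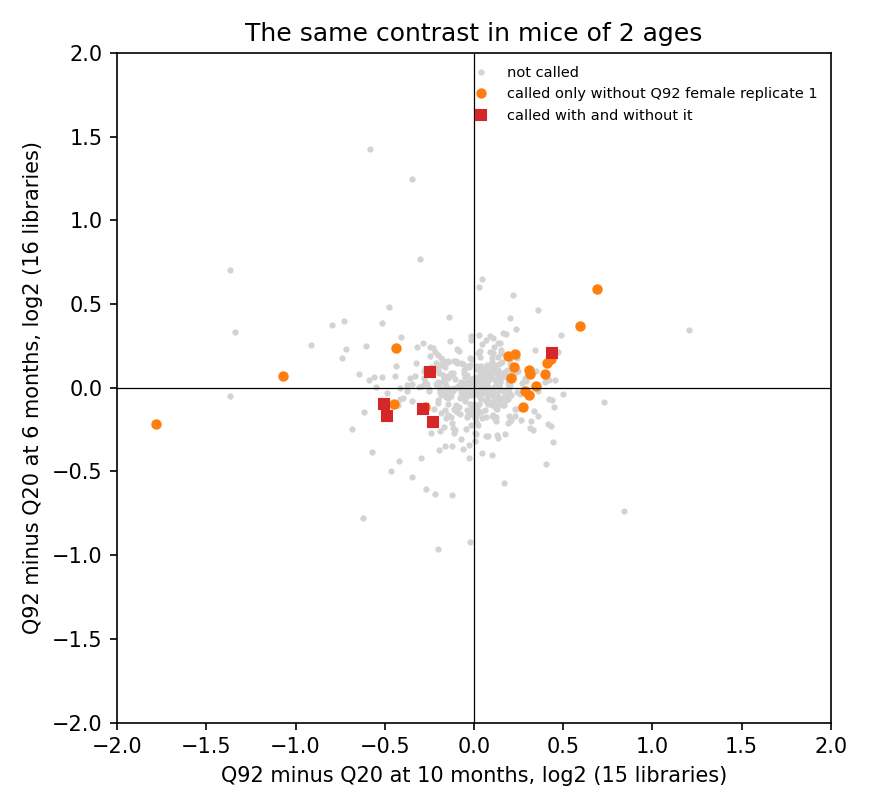
Log2 difference between Q92 and Q20 of the 474 tested hairpins at 10 months without Q92 female replicate 1 (x axis, 15 libraries) and at 6 months (y axis, 16 other libraries). Of the 26 called hairpins, drawn in colour, 20 lie in the quadrants of equal sign, and 2 hairpins that were not called lie outside the axes.

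The difference between the ages was itself tested. No hairpin passed by edgeR or by DESeq2 (0%), and 31 (6.54%) had an unadjusted p under 0.05 by edgeR. MI0014051 had the smallest p: it averaged 1.66 ± 0.60 CPM in Q92 and 0.953 ± 0.289 CPM in Q20 at 10 months, and 0.762 ± 0.306 and 1.27 ± 0.55 CPM at 6 months (difference of log2 differences 1.498 ± 0.387, adjusted p 0.0988, edgeR). It was called without Q92 10-month male replicate 3 or without Q20 6-month male replicate 4. MI0004120 followed (0.91 ± 0.27, adjusted p 0.247), with log2 differences of 0.45 at 10 months and -0.46 at 6 months. For the 6 called hairpins the difference between ages ran from -0.44 ± 0.20 (MI0026046) to 0.20 ± 0.15 (MI0003520), and none was called.

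Females and males were compared in the same way. No hairpin differed in the Q92 minus Q20 contrast between the sexes by edgeR (0%), and 31 (6.54%) had an unadjusted p under 0.05. DESeq2 called 5 (1.05%). All 5 were hairpins of Q92 female replicate 1, namely MI0000224, MI0000225, MI0000243, MI0000554 and MI0001642. For MI0000243 the log2 difference was 2.81 ± 0.81 in females and -1.09 ± 0.78 in males (the sexes differed by 3.9004 ± 1.1234, adjusted p 0.190, edgeR). For MI0000224 it was 2.26 ± 0.68 and -1.01 ± 0.66. Without Q92 female replicate 2 edgeR called 6 hairpins, these 5 and MI0000694.

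The 6 hairpins of the main contrast had the same direction in both sexes. They were called on these same females and males, so the shared direction follows largely from that choice and is no separate evidence. MI0026046 was lower by a log2 of -0.61 ± 0.17 in females and -0.46 ± 0.17 in males, and MI0003520 was higher by 0.35 ± 0.15 and 0.46 ± 0.15. For MI0000173 the values were -0.18 ± 0.10 in females and -0.37 ± 0.10 in males, the largest gap of the 6 (0.19 ± 0.14, adjusted p 0.997, edgeR).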

How the data were processed

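Striatal short RNA was sequenced by the authors from 96 mice, single-end and strand-specific. The submitters' processing notes name CASAVA 1.8.2, and the study names mm10, STAR and HTSeq. The deposited tables hold estimated counts per hairpin, of which 20.0% of values above 0 were not whole (tolerance 0.001), and FPKM made from them by the authors. How the fractions arose is not stated.

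Estimated counts were rounded. Hairpins were kept by filterByExpr (minimum count 10) over genotype and age, and 474 of 1187 were tested with edgeR 4.0.16 in R 4.3.3 (TMM, robust quasi-likelihood F tests). All 48 libraries of 10 months entered 1 fit with 6 genotype groups and sex, and the contrast was Q92 minus Q20. The 48 libraries of 6 months were fitted likewise, and differences between ages and sexes as contrasts of contrasts. A hairpin was called at an adjusted p (Benjamini-Hochberg) below 0.05. The study adjusted for batch as well as sex, but the labels name no batch, so none was fitted and batch effects remain unadjusted here. Lists of microRNAs chosen by name, and the check of tissue markers, could not be matched to accessions, so the rule for named hairpins (called hairpins, those of smallest p, the most abundant ones and the miR-200 family) was limited to the calls, the hairpins of the singled-out library and the smallest p in each further comparison. Hairpins named beyond these were picked with their values in view. Members and lists were chosen with earlier results of these data known.

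Alternatives were DESeq2 1.42.0, limma 3.58.1 on log2(FPKM + 1) and log2(FPKM + 0.1), RLE factors, total counts, no filter, a mean of at least 10 CPM, other sets of libraries or controls, an L number from the descriptions as a factor, a replicate block, and each library left out. Chosen after the data were seen were both wild-type groups as controls, the connectivity limit, both Q20 libraries left out, and the wild-type and L4 fits without Q92 female replicate 1. Nothing states that 2 libraries came from 1 mouse, and no pair within the Q92 or the Q20 group differed by less than sampling noise (smallest chi-square per degree of freedom 31.4). Scripts were tested on simulated data. SEs cover counting and a spread between mice that was estimated over all groups of a fit, so they can understate the spread of the compared mice. With only the 16 Q92 and Q20 libraries, the SE was 0.157 in place of 0.120 for MI0026046 and 0.097 in place of 0.068 for MI0000173. In that fit these 2 hairpins had an adjusted p of 0.414 and 0.457 (edgeR). Precursor lengths came from the ratio of counts to FPKM. Figures used Python 3.11.15 and matplotlib 3.10.9, and the exact permutation test scipy 1.17.1.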

Additional observations from a re-analysis of the deposited data

Results flagged for a closer look

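Levels of 34 hairpins, those named in the results and the 5 most abundant, and total counts were examined at 10 months for a single mouse far from the other 7 of its group. For 8 of the hairpins this mouse was Q92 female replicate 1, as follows from their choice by their level in that library. There MI0000243 had 435 CPM (next Q92 mouse 69.6), MI0000554 361 (67.6), MI0001642 728 (109), MI0000694 33.4 (8.79), MI0000166 214 (51.3), MI0000583 54.3 (11.7), MI0000224 5173 (1205) and MI0000225 733 (176). In the 54 groups of 8 values that do not concern these hairpins, 5 values stood apart. Chance marks about 1 group in 20 where values are normally distributed. That rate does not hold for groups that are mostly 0, such as those of MI0025035 below. MI0000794 was high in Q92 male replicate 2 at 254 CPM, with 206 CPM in the next mouse. MI0000706, among the most abundant hairpins, was high in Q92 male replicate 1 at 110034 CPM, with 97485 CPM in the next. MI0001526 was high in Q20 female replicate 3 at 47434 CPM, with 42963 CPM in the next. MI0025035 was at 1116 CPM in Q92 male replicate 4 and at 0 in the other 7 Q92 mice, and in Q20 it was at 0.200 CPM in male replicate 1 and at 0 in the other 7. Its highest 10-month value was 872 CPM in wild-type siblings of the Q20 line and 553 CPM in Q50, with 0 in the next mouse of each. At 6 months the highest was 321 CPM in Q92 (next mouse 0) and 327 CPM in Q20 (next mouse 14.3), so such single high values were not particular to Q92.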

How the results depend on the processing

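The 6 calls of Q92 against Q20 at 10 months became 0 with only the 16 libraries, only L4 libraries or wild-type littermates of Q20 as controls, 2 (MI0000173 and MI0000257) without the libraries under the connectivity limit, and 12 with both wild-type groups as controls, alone or with Q20; the 12 shared 0 with the 6. Q20 with both wild-type groups is the setting nearest to the control set of the study. The calls numbered 4 to 8 under the other settings with all libraries. With 1 library left out they ran from 0 to 26, and DESeq2 called 29 without Q92 female replicate 1. All 6 kept their direction under each of 32 alternatives, with smaller differences in L4 libraries as given above. Most of these fits share nearly all their libraries, so the 32 are not independent agreements. The 26 calls without Q92 female replicate 1 became 14 with RLE factors, 17 with total counts, 1 with no filter, and 0 with only Q92 and Q20 libraries, only L4 libraries or wild-type controls of either kind, and ran from 0 to 41 with a further library left out. At 6 months the 0 calls became 2 with DESeq2, and 0 to 1 with a library left out. The difference between ages had 1 call with the L number as a factor, MI0025035, which was high in single mice of several groups, as given above. With a library left out that difference had 0 to 1 calls. The difference between sexes had 5 with DESeq2, 4 with the L number as a factor (MI0000224, MI0000225, MI0000243 and MI0001642) and 0 to 6 with a library left out. Log2 values below 0 in place of above 0 were found for MI0000243 (-0.12), MI0000554 (-0.028), MI0001642 (-0.13) and MI0000166 (-0.22) without Q92 female replicate 1 (with any 1 library left out, up to 1.59, 1.62, 1.61 and 1.13), for MI0000243 (-0.12), MI0001642 (-0.13) and MI0000166 (-0.14) without the libraries under the connectivity limit, and for MI0000166 (-0.11) in L4 libraries. Other causes were not tested.

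The deviations of libraries with the same replicate number had a mean correlation of 0.05 (from -0.23 to 0.31), against -0.01 for other numbers. So few values with that spread cannot exclude a pairing, and the main fit used none. With the replicate block 8 hairpins were called with all libraries, the 6 included, and 0 without Q92 female replicate 1.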
